A study of Mus musculus with 6 samples.

Results

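The 10 genes described here encode proteins that decide whether a cell in G1 goes on to replicate its DNA: the D-type cyclins Ccnd1, Ccnd2 and Ccnd3, their kinase partners Cdk4 and Cdk6, the CIP/KIP inhibitor Cdkn1b, and the INK4 inhibitors Cdkn2a, Cdkn2b, Cdkn2c and Cdkn2d. They were taken by gene symbol from the deposited expression table, which holds 17924 genes, and all 10 were found in it and passed the filter on low values that left 16252 genes for testing. The libraries were made from dermal fibroblasts of the dorsal skin of newborn mice (P0), cultured for 14 days in adipocyte differentiation medium. Nelfb-/- cultures, labelled KO, came from Nelfb fl/fl Pdgfra-Cre+/- mice, and control cultures (CTL) from Pdgfra-Cre+/- mice whose Nelfb alleles were fl/wt or wt/wt, all on a C57BL/6J background. There were 3 libraries in each group. All 6 cultures carried the Cre transgene, which acts in cells that express Pdgfra. Cells of other lineages in the dish may thus keep Nelfb, which was not measured by cell type. The labels do not say which of the control genotypes each CTL library had.

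In G1, a D-type cyclin binds CDK4 or CDK6, and the complex phosphorylates the retinoblastoma protein, which frees E2F factors to switch on genes for DNA replication. INK4 proteins bind CDK4 and CDK6 and keep the cyclin away, whereas CIP/KIP proteins such as p27 bind assembled cyclin-CDK complexes and block above all those containing CDK2. Preadipocytes stop dividing before they become adipocytes, pass through a short burst of division in many culture models after induction, and leave the cycle for good as they mature. CDK inhibitors are known to take part in that exit, and mice that lack p27 are known to have more fat cells.

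Nelfb, the gene deleted in the cross, was at 17.3, 19.6 and 22.3 CPM (reads of a gene per 1000000 reads of the library) in the CTL libraries and at 5.50, 3.90 and 5.55 CPM in the Nelfb-/- libraries, in the order of their replicate numbers, as in all lists of values here. The groups did not overlap, at a log2 fold change of -1.99 (SE 0.22) with an adjusted p of 0.0050 by limma. The depth of the libraries, read from the step between low values, ran from 17180000 to 29410000 reads, which puts 3 reads at 0.102 to 0.175 CPM. Of all genes tested, 1824, or 11.2%, were called, which means an adjusted p of at most 0.05 together with a change of at least 2-fold, and 3.64% were called lower and 7.58% called higher in Nelfb-/- cells. RNA of dividing cells was not spread evenly over the libraries. The proliferation marker Mki67 was at 29.4, 26.3 and 140 CPM in the CTL libraries and at 39.6, 162 and 139 CPM in the Nelfb-/- libraries. CTL replicate 3 and Nelfb-/- replicates 2 and 3 thus stood above CTL replicates 1 and 2 and Nelfb-/- replicate 1, and this split ran across the genotypes. In bulk RNA, fewer cells of a type and less RNA per cell cannot be told apart, which holds for every value given here.

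Of the 10 G1 genes, 1 was called, Ccnd2, which was lower in Nelfb-/- cells, and 0 were called higher. A count of 1 in 10 is near the 11.2% of all genes called in either direction. Cdkn1b passed the limit on the adjusted p but not that on the fold, so that 2 of 10 passed the former, beside 15.8% of all genes. Together with Cdkn2c they were the 3 genes whose values were lower in every Nelfb-/- library than in any CTL library. None of the 10 was higher in every Nelfb-/- library, and in the other 7 the groups overlapped. Over the whole table, 38.1% of genes had groups that did not overlap, so the 3 of 10 found here lie close to the background. A negative log2 fold change was found in 5 genes and a positive one in 5, with a median of -0.02 beside 0.07 over all genes tested.

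**Figure D1:**
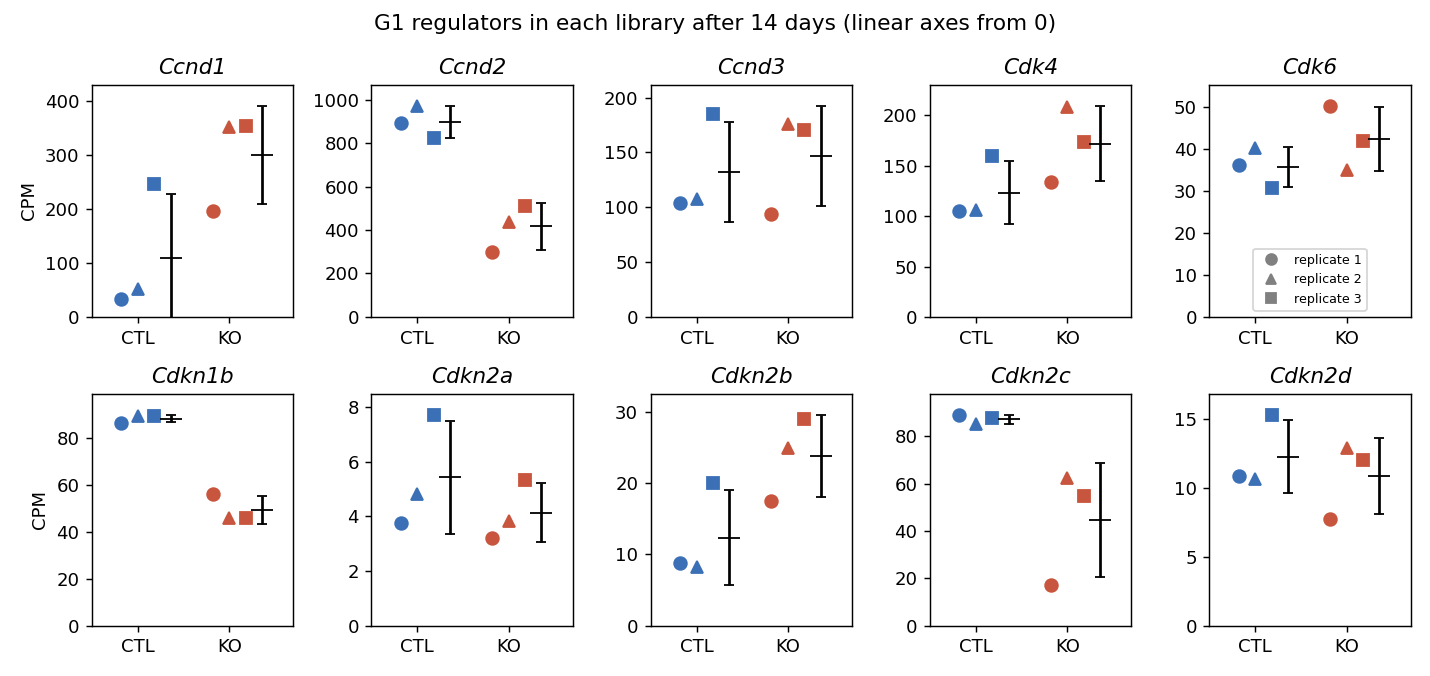
CPM of each G1 gene in every library, on linear axes that start at 0 and differ between panels. Blue symbols are CTL and red symbols Nelfb-/- (KO) libraries, symbol shapes give the replicate number, and the black dash and bar give the mean and SD of 3 libraries (the lower end of the Ccnd1 CTL bar is cut at 0). Ccnd2, Cdkn1b and Cdkn2c were lower in all 3 KO libraries, and in Ccnd1 the value of CTL replicate 3 (247 CPM) lay above that of KO replicate 1 (196 CPM).

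The D-type cyclins are largely interchangeable in activating CDK4 and CDK6 but differ in where and to which signals they are expressed. Ccnd2 (ENSMUSG00000000184, minus strand of chromosome 6, 127125162 to 127152193 in GRCm38) encodes cyclin D2. It was at 892, 971 and 826 CPM in the CTL libraries and at 301, 437 and 511 CPM in the Nelfb-/- libraries, which gives 896.5 ± 72.6 and 416 ± 107 CPM (SD, n = 3 each). The lowest CTL library stood well above the highest Nelfb-/- library, and the order of the libraries was not that of Mki67. The log2 fold change was -1.14 (SE 0.24, 95% interval -1.71 to -0.57, limma, adjusted p = 0.025), a 2.20-fold decrease. The call held without CTL replicate 3 (-1.20, adjusted p = 0.030) and was lost when any of the other 5 was left out. Without Nelfb-/- replicate 1 the adjusted p was 0.027 and the change fell short of the fold limit (-0.92), and without CTL replicate 1, CTL replicate 2, Nelfb-/- replicate 2 or Nelfb-/- replicate 3 the adjusted p ranged from 0.066 to 0.099 at log2 fold changes between -1.08 and -1.303.

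Ccnd1 (ENSMUSG00000070348, minus strand of chromosome 7, 144929931 to 144939925) encodes cyclin D1, the D-type cyclin most directly induced by growth factors. It was at 32.4, 51.6 and 247 CPM in the CTL libraries and at 196, 352 and 355 CPM in the Nelfb-/- libraries. CTL replicate 3 thus held 5.87 times the mean of the other CTL libraries and more than Nelfb-/- replicate 1, so the groups overlapped. The log2 fold change was 1.96 with a wide error (SE 0.73, 95% interval 0.21 to 3.72), and it did not pass the limit by limma, where the adjusted p was 0.12. The fit that left out CTL replicate 3 gave 2.82 with an adjusted p of 0.0081, which is a call. Leaving out any other library gave log2 fold changes from 1.36, without CTL replicate 1, to 2.25, without Nelfb-/- replicate 1, with adjusted p values from 0.12 to 0.30.

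Ccnd3 (ENSMUSG00000034165, plus strand of chromosome 17, 47505051 to 47599691) encodes cyclin D3, which accumulates in many cells as they differentiate and is known to bind and activate PPARG during fat cell formation. It was at 104, 108 and 185 CPM in the CTL libraries and at 94.2, 176 and 170 CPM in the Nelfb-/- libraries. The high and low libraries were those of Mki67, and the groups lay over each other. Its log2 fold change was 0.15 (95% interval -0.64 to 0.93, limma, adjusted p = 0.79). That interval overlapped the interval of Ccnd2 (-1.71 to -0.57), and a test of the difference was not run.

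Because longer transcripts collect more reads, levels were compared between genes only as CPM per kilobase (kb) of annotated exon. On this scale cyclin D2 mRNA made up 83.5%, 81.6% and 54.5% of the D-type cyclin mRNA in the CTL libraries and 37.9%, 32.9% and 36.5% in the Nelfb-/- libraries. Cyclin D1 mRNA made up 6.06%, 8.67% and 32.5% in CTL and 49.4%, 52.9% and 50.5% in Nelfb-/- libraries. Every CTL library, the one with high Mki67 included, had more Ccnd2 than Ccnd1 per kb, and every Nelfb-/- library, the one with low Mki67 included, had more Ccnd1 than Ccnd2. The ratio of Ccnd1 to Ccnd2 per kb was 0.0726, 0.106 and 0.596 in CTL and 1.302, 1.61 and 1.39 in Nelfb-/- libraries. The share of Ccnd3 lay between 9.71% and 14.2% in all 6 libraries. The sum over the 3 cyclins was 114, 126 and 161 CPM per kb in CTL and 84.3, 141 and 149 CPM per kb in Nelfb-/- libraries, with overlapping groups. Dividing by the longest annotated transcript in place of all exons put the mean share of Ccnd2 at 70.6% in CTL and 36.0% in Nelfb-/- libraries, beside 73.2% and 35.8% with all exons. The mean share of Ccnd1 was then 13.0% in CTL and 43.45% in Nelfb-/- libraries. That of Ccnd3 moved more, to between 14.3% and 21.85% over the 6 libraries, so its size depended on the length used. These shares are descriptions and carry no test.

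**Figure D2:**
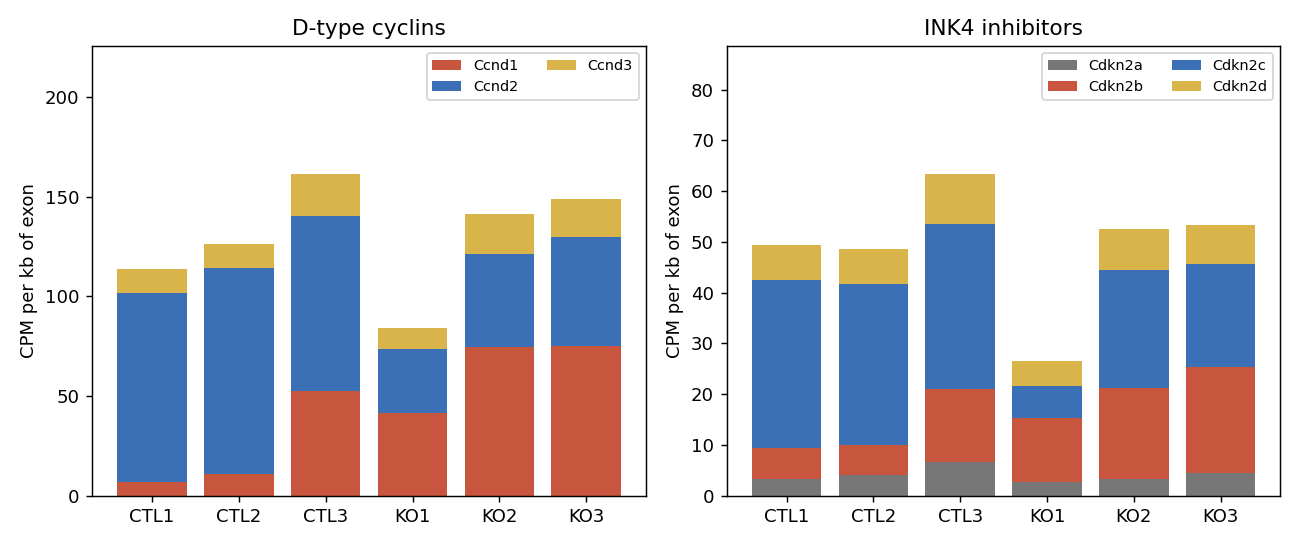
Stacked bars of CPM per kb of annotated exon in each library for the D-type cyclins (left) and the INK4 inhibitors (right), from 0, with 1 bar per library and no error. Ccnd2 was the tallest segment of the cyclin bar in all 3 CTL libraries (54.5% to 83.5%) and Ccnd1 in all 3 KO libraries (49.4% to 52.9%), and Cdkn2c took 51.6% to 66.9% of the INK4 bar in CTL and 23.9% to 44.1% in KO libraries.

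The catalytic partners did not pass the limit. Cdk4 (ENSMUSG00000006728, plus strand of chromosome 10, 127063534 to 127067920) was at 105, 106 and 159 CPM in the CTL libraries and at 134, 208 and 174 CPM in the Nelfb-/- libraries. The value of CTL replicate 3 lay above that of Nelfb-/- replicate 1, so the groups overlapped, and the log2 fold change was 0.48 (95% interval -0.09 to 1.06, limma, adjusted p = 0.22). Cdk6 (ENSMUSG00000040274, plus strand of chromosome 5, 3341485 to 3531008), a kinase with the same cyclin partners, was at 36.1, 40.2 and 30.7 CPM in the CTL libraries and at 50.1, 34.9 and 41.7 CPM in the Nelfb-/- libraries. Here the library with low Mki67 was the highest of its group in Nelfb-/- cells and the one with high Mki67 the lowest in CTL cells, the reverse of Cdk4. Its log2 fold change was 0.24 (95% interval -0.21 to 0.68, limma, adjusted p = 0.42). Per kb of exon, Cdk4 made up 91.9% to 96.3% of the Cdk4 and Cdk6 mRNA in every library.

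Cdkn1b (ENSMUSG00000003031, plus strand of chromosome 6, 134920401 to 134925513) encodes p27, a CIP/KIP inhibitor that holds cells in quiescence and whose protein is removed through SKP2. It had the most even values of the group: 86.4, 89.2 and 89.3 CPM in the CTL libraries (88.3 ± 1.64, SD, n = 3) and 56.3, 46.0 and 45.8 CPM in the Nelfb-/- libraries (49.4 ± 6.02). Its values differed by at most 1.03-fold among the CTL libraries and 1.23-fold among the Nelfb-/- libraries, where Mki67 differed by 5.33-fold and 4.08-fold, and its highest Nelfb-/- value was in replicate 1, which had the lowest Mki67 of that group. The log2 fold change was -0.84 (SE 0.13, 95% interval -1.16 to -0.53, limma, adjusted p = 0.012), the smallest adjusted p among the 10 genes, at a 1.80-fold difference that misses the fold limit. The adjusted p was 0.011 without Nelfb-/- replicate 1 and 0.016 without CTL replicate 3. It rose above the limit in the other 4 fits that left out a library, to at most 0.070 without Nelfb-/- replicate 3, with log2 fold changes between -0.79 and -0.86.

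Of the 4 INK4 inhibitors, 0 were called, beside 11.2% of all genes, so the count says nothing particular about them, and their log2 fold changes ran from -1.17 to 1.04. Cdkn2c (ENSMUSG00000028551, minus strand of chromosome 4, 109660876 to 109667189) encodes p18, an INK4 protein known from cells in terminal differentiation. It was at 88.8, 85.2 and 87.7 CPM in the CTL libraries and at 17.1, 62.3 and 54.6 CPM in the Nelfb-/- libraries. All Nelfb-/- libraries lay below the 3 closely spaced CTL libraries, and replicate 1, with low Mki67, lay far below the other Nelfb-/- libraries. The log2 fold change was -1.17 (SE 0.47, 95% interval -2.31 to -0.03) and did not pass the limit (limma, adjusted p = 0.15). Nelfb-/- replicate 1 set both the size and the error: without it the change was -0.58 with an adjusted p of 0.030, which is under 2-fold.

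Cdkn2b (ENSMUSG00000073802, minus strand of chromosome 4, 89306299 to 89311039) encodes p15, the INK4 inhibitor induced by TGF-beta. It was at 8.75, 8.26 and 19.96 CPM in the CTL libraries and at 17.5, 24.9 and 28.9 CPM in the Nelfb-/- libraries. As in Ccnd1, CTL replicate 3 exceeded Nelfb-/- replicate 1. Its log2 fold change was 1.04 (95% interval 0.12 to 1.96, limma, adjusted p = 0.12). When CTL replicate 3 was left out it was 1.45 with an adjusted p of 0.016, a call, while leaving out any of the other 5 gave log2 fold changes from 0.81 to 1.24 with adjusted p values from 0.093 to 0.32, and no call.

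Cdkn2a (ENSMUSG00000044303, minus strand of chromosome 4, 89274471 to 89294653) lies beside Cdkn2b and encodes both p16, an INK4 inhibitor that accumulates in senescent cells, and p19ARF, which stabilises p53 from another reading frame. Values per gene cannot separate these products. It was at 3.74, 4.81 and 7.72 CPM in the CTL libraries and at 3.22, 3.84 and 5.34 CPM in the Nelfb-/- libraries, which rest on 66 to 227 reads a library. The groups overlapped, with a log2 fold change of -0.35 (95% interval -1.18 to 0.47, limma, adjusted p = 0.52). The 2 neighbours thus had fold changes of opposite sign, and a test of that difference was not run. Cdkn2d (ENSMUSG00000096472, minus strand of chromosome 9, 21288410 to 21291407), which encodes the INK4 inhibitor p19 (not ARF), was at 10.8, 10.6 and 15.3 CPM in the CTL libraries and at 7.73, 12.9 and 11.99 CPM in the Nelfb-/- libraries. It too overlapped (log2 fold change -0.19, 95% interval -0.82 to 0.45, limma, adjusted p = 0.67).

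Per kb of exon, Cdkn2c made up 66.9%, 65.4% and 51.6% of the INK4 mRNA in the CTL libraries and 23.9%, 44.1% and 38.1% in the Nelfb-/- libraries. Cdkn2b made up 12.7%, 12.3% and 22.7% in CTL and 47.3%, 34.1% and 39.0% in Nelfb-/- libraries. Neither share overlapped between the groups, whereas those of Cdkn2a (6.23% to 10.4%) and Cdkn2d (13.9% to 18.5%) did.

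The bases before the start sites were read for 8 of the 10 genes from RefSeq on GRCm38.p6. NELF acts on RNA polymerase II just downstream of start sites, so these stretches do not cover the place where it acts. Ccnd1 and Ccnd2 have no entry in the table used. The sequences of Cdkn1b and Cdkn2b are shown because they are inhibitors whose log2 fold changes had opposite signs, and that of Cdk4 because of its repeated motif. Each runs 5′ to 3′ on the gene's strand and ends before the first annotated exon. Cdkn1b lies at chr6:134920151-134920400 (plus strand), Cdkn2b at chr4:89311040-89311282 (minus strand) and Cdk4 at chr10:127063285-127063533 (plus strand). Capitals mark the motifs named after them.
Cdkn1b: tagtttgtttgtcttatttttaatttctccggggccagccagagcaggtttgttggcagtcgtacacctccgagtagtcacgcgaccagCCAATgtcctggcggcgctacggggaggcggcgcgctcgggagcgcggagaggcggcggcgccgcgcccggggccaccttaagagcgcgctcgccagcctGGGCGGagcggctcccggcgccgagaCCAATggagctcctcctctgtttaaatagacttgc
Cdkn2b: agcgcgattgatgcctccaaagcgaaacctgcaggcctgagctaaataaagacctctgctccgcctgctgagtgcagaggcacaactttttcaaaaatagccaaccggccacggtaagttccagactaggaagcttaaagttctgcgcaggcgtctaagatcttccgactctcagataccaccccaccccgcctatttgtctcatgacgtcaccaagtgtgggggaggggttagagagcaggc
Cdk4: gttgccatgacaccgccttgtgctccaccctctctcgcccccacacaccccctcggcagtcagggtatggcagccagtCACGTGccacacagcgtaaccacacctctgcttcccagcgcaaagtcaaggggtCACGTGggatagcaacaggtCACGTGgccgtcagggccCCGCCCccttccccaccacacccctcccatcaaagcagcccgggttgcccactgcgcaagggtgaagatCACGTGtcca
Motifs were searched on both strands in the 11 stretches of these 8 genes and in all 32851 stretches of the same length (250 bases before a RefSeq start, which can run over annotated exons of other transcripts or genes), and none of them contains another. The Sp1 motif, spelled GGGCGG, was in 7 of the 11 stretches, in 5 of them before any annotated exon, and in 32.7% of all stretches. That of NF-Y, spelled CCAAT, was in 3 of them and in 33.8% of all. The E-box bound by MYC and related factors, spelled CACGTG, was in 2 of them, those of Cdk4 and Cdk6, and in 6.02% of all. For the TATA box, spelled TATAAA, the values were 1 of 11, with 0 before any annotated exon, and 12.4%. Of the E2F motifs, TTTCCCGC was in 1 stretch, that of Cdkn2a, and in 0.895% of all, while the version spelled TTTGGCGC was in 0 of 11 and in 0.417% of all. The AP-1 motif TGACTCA was in 0 of 11 and in 4.46% of all. The printed stretch of Cdkn1b held the NF-Y motif at 2 places and the Sp1 motif at 1, that of Cdkn2b held none of the motifs, and that of Cdk4 held the E-box at 4 places and the Sp1 motif at 1. A match only says that these letters are there.

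The order of the levels per kb in CTL cells began with Ccnd2 at 95.3 ± 7.72 CPM per kb (SD, n = 3). Cdk4 followed at 38.0 ± 9.62, Cdkn2c at 32.5 ± 0.69, Ccnd1 at 23.4 ± 25.2, Cdkn1b at 19.4 ± 0.36 and Ccnd3 at 15.1 ± 5.19 CPM per kb. Below these came Cdkn2b at 8.87 ± 4.76, Cdkn2d at 7.78 ± 1.66, Cdkn2a at 4.63 ± 1.76 and Cdk6 at 2.55 ± 0.34 CPM per kb. Ccnd2 stood clear of Cdk4 in CTL cells. The values of Cdk4 and Cdkn2c overlapped between libraries, and so did those of Ccnd1 with its neighbours on both sides, of Cdkn1b with Ccnd3, of Ccnd3 with Cdkn2b, and of Cdkn2b with Cdkn2d, whereas Cdkn2d, Cdkn2a and Cdk6 were apart. In Nelfb-/- cells Ccnd1 came first at 63.9 ± 19.3 CPM per kb, then Cdk4 at 52.9 ± 11.5 and Ccnd2 at 44.3 ± 11.4, and these 3 overlapped. The order depended on the length used. Per kb of the longest annotated transcript, the Nelfb-/- mean was 83.7 for Cdk4, 80.4 for Ccnd1 and 65.8 for Ccnd2. In CTL cells the mean of Ccnd3 (34.3) then stood above those of Ccnd1 (29.5) and Cdkn1b (19.4), and the rest of the order stayed the same.

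**Figure D3:**
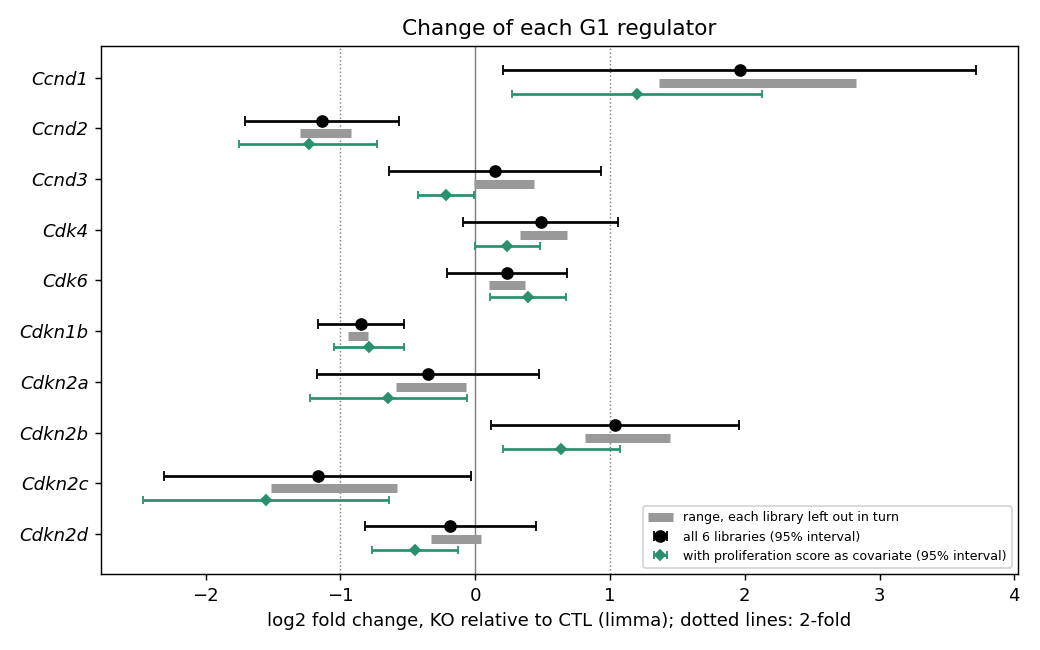
Log2 fold change of each G1 gene, KO relative to CTL, from limma over all genes tested. Black circles and bars give the estimate from 6 libraries with its 95% interval, grey bars the range over the 6 fits that each lack a library, green diamonds and bars the estimate and 95% interval with a proliferation score as covariate, and dotted lines mark 2-fold. The interval of Ccnd2 (-1.71 to -0.57) and that of Cdkn1b (-1.16 to -0.53) lay well below 0, while that of Ccnd1 ran from 0.21 to 3.72.

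Because proliferation RNA differed within each group, the G1 genes were set beside a list of 28 genes of DNA replication and mitosis. Of these 28 genes, 0 were called by limma, 2 had an unadjusted p under 0.05 (Pcna and Mcm6), and all 28 had a positive log2 fold change. Of all genes tested, 11.2% were called, 32.5% had an unadjusted p under 0.05 and 54.6% had a positive log2 fold change. Their summed level was 231, 232 and 1024 CPM in the CTL libraries and 305, 1263 and 1123 CPM in the Nelfb-/- libraries. Top2a, which untangles replicated DNA, was at 19.7, 18.1 and 86.6 CPM in CTL and at 14.4, 107 and 91.4 CPM in Nelfb-/- libraries. Pcna, the sliding clamp of DNA polymerases, was at 22.6, 23.0 and 49.5 CPM in CTL and at 47.2, 81.5 and 74.1 CPM in Nelfb-/- libraries. Neither gene separated the groups, and the log2 fold changes of Mki67, Top2a and Pcna were 1.01, 0.73 and 1.16 (limma, adjusted p = 0.42, 0.63 and 0.079). Of the 10 G1 genes, 7 had their highest CTL value in replicate 3, beside 47.9% of all genes tested, and 8 their lowest Nelfb-/- value in replicate 1, beside 44.9%. The 7 include Cdkn1b, whose values in CTL replicates 2 and 3 were 89.23 and 89.25 CPM.

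A fit that held the mean log2 value of those 28 genes constant, with 6 libraries and 3 coefficients, kept the sign of 9 of the 10 log2 fold changes. Ccnd2 was at -1.24 (limma, adjusted p = 0.0064), Cdkn1b at -0.79 (adjusted p = 0.0030) and Cdkn2c at -1.56 (adjusted p = 0.022), so that Ccnd2 and Cdkn2c were called. The values of Ccnd1 and Cdkn2b were smaller than without the score, at 1.20 (adjusted p = 0.053) and 0.64 (adjusted p = 0.036). Cdkn2a was at -0.64 (adjusted p = 0.082) and Cdkn2d at -0.45 (adjusted p = 0.041), and Cdk4 and Cdk6 were at 0.24 and 0.39 (adjusted p = 0.11 and 0.042). Ccnd3 turned from 0.15 to -0.22 (adjusted p = 0.094). The score was measured in the same libraries as the genes, and in the same fit 2700 of all genes were called.

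**Figure D4:**
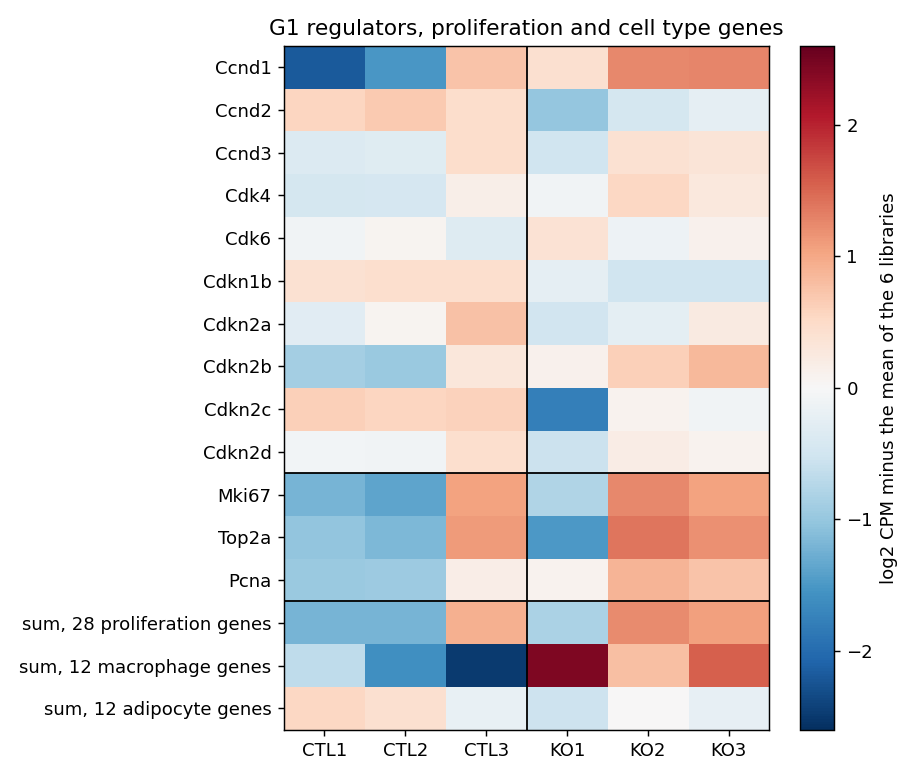
Heat map of log2 CPM minus the mean of the 6 libraries for the 10 G1 genes, for 3 proliferation genes and for the summed CPM of 3 gene lists, in 3 CTL and 3 KO libraries (red above and blue below the mean, 1 cell per library and no error). Ccnd1 and Cdkn2b were above their mean in CTL3, KO2 and KO3, as was Mki67 (140, 162 and 139 CPM there), but also in KO1, where Mki67 was below it (39.6 CPM), Ccnd2 and Cdkn1b separated the groups, and the macrophage genes were highest in KO1 (7499 CPM).

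Marker genes of other cell types were read in the same way, beside 7.58% of all genes called higher and 3.64% called lower. Of 12 macrophage genes, 11 were called higher, with a summed level of 245 to 871 CPM in CTL and 2382 to 7499 CPM in Nelfb-/- libraries, and none was at or below 3 reads in all libraries of a group. The highest sum was that of Nelfb-/- replicate 1, which of all 6 libraries had the lowest Ccnd2, Ccnd3, Cdkn2a, Cdkn2c and Cdkn2d. Of 12 adipocyte genes, 2 were called lower and the sum was 29140 to 48390 CPM in CTL and 22880 to 33450 CPM in Nelfb-/- libraries. A negative log2 fold change was found in 9 of the 12. Of the 12, 5 were lower and 1 was higher in every Nelfb-/- library, beside 38.1% of all genes with groups that did not overlap. RNA of the list was thus present in every library, and which cells held it was not tested. Of 11 fibroblast genes tested, 2 were called higher (7302 to 23060 CPM in CTL and 14260 to 41860 CPM in Nelfb-/- libraries). All 4 tested muscle genes were called higher, as were 2 of 4 Schwann cell genes (with 1 lower), 1 of 6 endothelial genes and 1 of 4 keratinocyte genes. The last counts are single genes, and the endothelial sums overlapped between the groups (7.04 to 11.8 CPM in CTL and 8.44 to 22.0 CPM in Nelfb-/- libraries). Their sums stayed at or under 14.6 CPM for the keratinocyte list, 22.0 CPM for the endothelial list, 68.6 CPM for the muscle list, 115 CPM for the Schwann cell list and 168 CPM for the melanocyte list in every library. Myod1 and Ckm of the muscle list were at or below 3 reads in all CTL libraries and were not tested. Of the 6 melanocyte genes, Tyr, Tyrp1 and Mlana were at or below 3 reads in all CTL libraries and passed the filter only through the Nelfb-/- libraries, so their calls are not counted, and of the other 3, Dct and Pmel were called higher and Mitf was not called. The part of other cell types in the values of the G1 genes was not tested.

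The wider G1/S machinery was read from a list of 33 genes that work with these members, such as cyclin E, CDK2, retinoblastoma and E2F family genes, further inhibitors, and the ubiquitin ligases that destroy cyclins and inhibitors. All 33 were tested, and 2 were called higher and 0 lower, beside 7.58% and 3.64% of all genes. An unadjusted p under 0.05 was found in 7, beside 32.5% of all genes, and a positive log2 fold change in 23, beside 54.6%, with a median of 0.23 beside 0.07. Cdkn1c, which encodes p57, the third CIP/KIP inhibitor and the product of an imprinted gene, was at 113, 81.1 and 262 CPM in the CTL libraries and at 374, 803 and 638 CPM in the Nelfb-/- libraries. It rose by 2.10 on the log2 scale (SE 0.48, limma, adjusted p = 0.033), and the groups did not overlap. Skp2, the ubiquitin ligase subunit that marks p27 for destruction, was at 3.07, 3.03 and 5.78 CPM in the CTL libraries and at 8.49, 13.0 and 12.6 CPM in the Nelfb-/- libraries. It rose by 1.55 (SE 0.33, limma, adjusted p = 0.027), also without overlap. Both calls held without CTL replicate 3 and without Nelfb-/- replicate 1 and were lost when any of the other 4 libraries was left out, with an adjusted p of at most 0.12 for Cdkn1c and 0.11 for Skp2. With the proliferation score held constant they were at 1.58 and 1.22 (adjusted p = 0.0022 and 0.0027), and in that fit a further gene, Cks1b, a cofactor of SKP2, was called lower (-1.35, limma, adjusted p = 0.0044). Cdkn1a, the CIP/KIP gene that p53 induces, is named to complete the family and was at 289.5, 329 and 505 CPM in CTL and at 334, 308 and 308.5 CPM in Nelfb-/- libraries, with overlapping groups (log2 fold change -0.20, limma, adjusted p = 0.60). The 3 CIP/KIP genes thus had 1 gene called higher and none called lower, with Cdkn1b lower by less than 2-fold.

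A set of 8 genes around the Cdkn2a and Cdkn2b locus or tied to senescence, 7 of which were tested, held 0 called genes by limma, beside 11.2% of all genes, and 2 with an unadjusted p under 0.05, beside 32.5% of all genes, so both counts are near or under the background. Those 2 are named after their values were seen. Trp53, which encodes p53, was at 27.8, 28.5 and 45.0 CPM in CTL and at 52.5, 71.1 and 70.6 CPM in Nelfb-/- libraries. Its groups did not overlap, and its log2 fold change of 0.96 (limma, adjusted p = 0.040) was just under 2-fold. Mtap, which lies beside Cdkn2a and recycles a by-product of polyamine synthesis, was at 35.4, 34.3 and 41.0 CPM in CTL and at 45.9, 67.5 and 60.3 CPM in Nelfb-/- libraries (log2 fold change 0.64, limma, adjusted p = 0.060).

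The 3 tested genes whose log2 values followed those of Ccnd2 most closely over the 6 libraries were Rsph3b, 4931414P19Rik and Dgkk, with Pearson's r of 0.995, 0.995 and 0.994. Rsph3b was at 34.3, 34.9 and 31.6 CPM in CTL and at 19.3, 23.6 and 24.2 CPM in Nelfb-/- libraries. All 3 were lower in every Nelfb-/- library, and the coefficients are the highest of 16252 over only 6 points, which share their groups, so they are given as a description. Of the genes that the annotation places over or next to the ends of a member and that were tested, none was called. They were LTO1, 9330179D12Rik, Bysl and Tspan31, which overlap Ccnd1, Ccnd2, Ccnd3 and Cdk4 on the other strand, and Kri1, which lies next to Cdkn2d on the same strand. 9330179D12Rik lay between 0.271 and 0.996 CPM, beside 301 to 971 CPM for Ccnd2, and was higher in every Nelfb-/- library (log2 fold change 1.24, limma, adjusted p = 0.070), the opposite direction to Ccnd2. Gm43126, also annotated on the other strand of Ccnd2 with an overlap of 994 bases, was not tested and has no value here, and the same holds for Gm17590 and Gm42435, which overlap Cdk6 on its other strand by 8013 and 1448 bases. The part of antisense reads in the values of these members was not tested.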

How the data were processed

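RNA was measured in 3 CTL and 3 Nelfb-/- libraries, named as biological triplicates in the study's methods, which do not say that each came from a separate animal, so p-values measure the spread between these cultures. The submitters' processing notes name STAR 2.7 and Partek 9.0.20.0202, and reads were aligned to mm10. The counting tool and the strand setting are not given in the sources used here. The authors deposited CPM values that sum to 1000000 in each library, with 0.0001 added to each. The deposited CPM were not corrected for gene length. Other columns give the position and span of each gene, and the span was not used. Of low values, 72.4% to 75.0% were whole multiples of 1 read within 0.05 reads, too few to recover counts, so no count model was used.

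Values were scaled to a common depth of 22330000 reads, genes with a mean under 10 reads (0.448 CPM) were left out, and log2(value + 1 read) was tested with limma 3.58.1 in R 4.3.3, with an abundance trend and Benjamini-Hochberg adjustment over 16252 genes. Fold changes are on that log2 scale, which understates those of low genes. The test was two-sided and was checked on simulated data. Calls used the study's limits, an adjusted p of at most 0.05 and at least 2-fold. Gene positions and exon lengths came from GENCODE on GRCm38, matched by name and chromosome (17520 of 17924 genes), and upstream sequences from RefSeq. Read numbers are estimates from the step of low values. The alternatives were other pseudocounts, filters, scalings and variance priors, a replicate block, a proliferation score as covariate, no fold limit, and leaving out each library.

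Named genes were the 10 members, Nelfb, called genes of the G1/S list, Mki67, Top2a and Pcna, the 3 genes most like each called member, and tested genes at a member's ends. Outside that rule, Cdkn1a, Cks1b, Mcm6, Trp53, Mtap, Gm43126, Gm17590, Gm42435 and single cell type markers were named after their values were seen. The members, gene lists and rules were chosen with earlier results of these data known.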

Additional observations from a re-analysis of the deposited data

How the results depend on the processing

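Of 160 values of the 10 genes under the alternatives, 147 kept their direction and were called or not called as before, 5 gained and 5 lost a call, and 3 changed sign, all 3 in genes that were not called. Ccnd3 turned to -0.22 with the proliferation score as covariate and ranged from -0.011 (without Nelfb-/- replicate 2) to 0.44 when each library was left out, and Cdkn2d ranged from -0.32 to 0.041 (without Nelfb-/- replicate 1). The count of called members was 1 as reported, 2 with the proliferation score (Ccnd2 and Cdkn2c) and 2 without a fold limit, and 0 to 3 when each library was left out, with 3 without CTL replicate 3 and 0 without any of the other 5. The G1/S list held 2 called genes, 3 with the proliferation score (Cks1b was then called lower), and 0 to 4 with a library left out: 3 without CTL replicate 3, 4 without Nelfb-/- replicate 1, and 0 without any of the other 4. The proliferation list held 0, 1 with the proliferation score, and 0 to 3 with a library left out (3 without CTL replicate 3 and 1 without Nelfb-/- replicate 1). The score is the mean of these same genes, so their count in that fit says nothing about the list. Over all genes 1824 were called, 2700 with the proliferation score, 2566 without a fold limit, and 426 to 2479 with a library left out. The highest count, 2479, came without CTL replicate 3, where 3 members were called, and 1955 were called without Nelfb-/- replicate 1. The lowest came without Nelfb-/- replicate 3 (945 without Nelfb-/- replicate 2, 871 without CTL replicate 1, 758 without CTL replicate 2). The counts of the lists are to be read beside these. Fits with a library left out hold 5 libraries. The cause of the other changes was not tested. Other pseudocounts, filters, scalings and variance priors changed no call of a member. A value can cross 1 limit with its call unchanged: the adjusted p of Cdkn1b reached 0.070 with a library left out, Cdkn2b was at 0.97 under both other scalings, and Cdk6 and Cdkn2d had an adjusted p of 0.042 and 0.041 with the proliferation score.

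The labels give both groups replicate numbers 1 to 3 and do not say whether these pair the cultures. Deviations from the group means correlated at 0.52, -0.40 and 0.52 between cultures of the same number. Deviations within a group depend on each other, so these values cannot decide whether the numbers pair the cultures. With the replicate number as a block, 3 members were called (Ccnd1, Ccnd2 and Cdkn2b), 2 genes of the proliferation list (Pcna and Mcm6), 2 of the G1/S list and 2175 of all genes. CTL replicate 3 correlated best with replicate 2 of Nelfb-/- cells (0.54). The intervals given show the precision that 3 libraries a group allow, and CPM of the lowest member, Cdkn2a, rest on 66 to 227 reads.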
